A study of Mus musculus with 124 samples.

Results

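The Hippo genes described here are 10 members of the pathway: the angiomotins Amot, Amotl1 and Amotl2, the membrane scaffold Nf2, the kinases Lats1 and Lats2, the coactivators Yap1 and Wwtr1, and their DNA-binding partners Tead1 and Tead4. They were chosen by symbol, and all 10 were found among the 25239 genes of the blastocyst table, the 26992 of the oocyte table and the 24384 of the dorsal dentate gyrus (dDG) table. Mice exposed to human chorionic gonadotropin (hCG, the hormone that triggers ovulation) were set against unexposed mice (Ctrl). Females of the hCG group were in natural estrus and received 7.5 IU hCG intraperitoneally with no priming by another gonadotropin. Ctrl females in estrus that gave oocytes were housed with a vasectomised male. The matings that gave blastocysts and offspring are not described here. Metaphase II oocytes were taken 14 h after hCG in the hCG group and on the next morning from plugged Ctrl females, so in oocytes hCG, mating and the time since ovulation cannot be told apart. Blastocysts came from uterine flushes at day 3.5, and dDG came from offspring aged 8 weeks. Each group held 28 blastocyst, 6 oocyte and 6 dDG libraries. Strain, litter, mother and the number of embryos in a library are not in the labels, so p-values measure the spread between these libraries.

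The Hippo pathway is a kinase cascade: Lats1 and Lats2 phosphorylate the coactivators Yap1 and Wwtr1 (Taz) and keep them out of the nucleus, and unphosphorylated Yap and Taz enter the nucleus and act through Tead proteins. In the mouse blastocyst, the outer cells keep Hippo signalling low, and Yap with Tead4 there turns on trophectoderm genes such as Cdx2 and Gata3. In the inner cells, Amot and Nf2 at the membrane activate Lats kinases and Yap stays in the cytoplasm. The tables give RNA levels, which do not show where Yap is in the cell or how much of it is phosphorylated.

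The 10 genes differ in the DNA before their starts, and 5 of these promoters are shown because they belong to genes whose RNA is described first or hold the sequence that Tead proteins are known to bind. RefSeq's table for GRCm38.p6 gave 11 windows of 250 bases before a start for 8 of the genes, and Tead1 and Tead4 had no window in it. Both strands were searched for GGAATG, whose reverse is CATTCC. It stood in 4 of the 11 windows, those of Amotl2 and Yap1 and a pair of overlapping windows of Wwtr1. Of all 32851 windows, 12.6% hold it. In the lines that follow, each written 5′ to 3′ on the gene's strand, the capitals mark that motif, and the sequences of Amot and Lats1 hold none.
Amot (chrX:145487640-145487889, minus strand): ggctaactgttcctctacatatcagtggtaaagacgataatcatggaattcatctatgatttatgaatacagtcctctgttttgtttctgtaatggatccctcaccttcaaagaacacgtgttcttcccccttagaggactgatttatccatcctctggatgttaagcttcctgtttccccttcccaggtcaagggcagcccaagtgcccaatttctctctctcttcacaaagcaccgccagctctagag
Lats1 (chr10:7680959-7681208, plus strand): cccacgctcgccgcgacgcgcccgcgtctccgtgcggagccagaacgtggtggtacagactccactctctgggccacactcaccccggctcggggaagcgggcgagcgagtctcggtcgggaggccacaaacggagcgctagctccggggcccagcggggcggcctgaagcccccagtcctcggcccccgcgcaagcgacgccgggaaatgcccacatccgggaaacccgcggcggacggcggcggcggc
Wwtr1 (chr3:57575877-57576126, minus strand): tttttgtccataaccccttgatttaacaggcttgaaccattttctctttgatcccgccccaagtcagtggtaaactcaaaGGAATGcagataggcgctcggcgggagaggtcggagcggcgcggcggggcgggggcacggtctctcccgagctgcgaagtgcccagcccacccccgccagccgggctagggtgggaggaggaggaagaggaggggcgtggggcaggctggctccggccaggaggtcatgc
Yap1 (chr9:8004597-8004846, minus strand): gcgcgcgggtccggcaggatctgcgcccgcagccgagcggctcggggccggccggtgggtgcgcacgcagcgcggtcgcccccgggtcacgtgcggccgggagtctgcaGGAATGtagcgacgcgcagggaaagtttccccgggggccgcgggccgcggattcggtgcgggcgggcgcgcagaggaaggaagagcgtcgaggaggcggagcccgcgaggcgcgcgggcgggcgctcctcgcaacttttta
Amotl2 (chr9:102717554-102717803, plus strand): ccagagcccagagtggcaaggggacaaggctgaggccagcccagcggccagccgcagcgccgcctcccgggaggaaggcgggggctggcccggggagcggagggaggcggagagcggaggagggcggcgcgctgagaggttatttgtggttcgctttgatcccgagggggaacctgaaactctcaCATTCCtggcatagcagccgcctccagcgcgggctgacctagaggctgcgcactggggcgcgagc
The motif lies 65 bases before the start in Amotl2, 141 in Yap1, and 170 in the Wwtr1 window shown. The Amot start in the RefSeq table lies inside the gene's span of chrX:145446424-145505966. The whole Amotl2 window, with its motif, also lies inside that gene's span of chr9:102717091-102733418. The G and C content of the members' windows ran from 33.6% to 76.4%, against a median of 52.4% over all windows. A match describes letters only, and no match says only that these letters are not in the window.

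Library facts that touch the results are as follows. Reads per library were 3043231 to 10859379 in blastocysts (estimated from the table), 2375645 to 6910882 in oocytes and 14941550 to 17799935 in dDG. Trophectoderm and inner cell mass markers were present in every blastocyst library, oocyte markers in oocytes and granule neuron markers in dDG. Genes detected per blastocyst library averaged 13549 ± 335 in hCG and 12968 ± 798 in Ctrl (SD, n = 28 each; permutation test, adjusted p = 0.0033 over 22 measures). The summed level of the 10 trophectoderm markers was 5677 ± 1537 CPM (reads scaled to a common library total) in hCG and 6377 ± 2564 CPM in Ctrl (permutation test, adjusted p = 0.444). For the 7 inner cell mass markers it was 395 ± 152 CPM in hCG and 346 ± 142 CPM in Ctrl (adjusted p = 0.444, permutation test). The largest part of that sum is Nanog, with means of 242 CPM in hCG and 160 CPM in Ctrl, and each of the other 6 markers had a lower mean in hCG. Cumulus and granulosa cell markers, 4 of 10 at 0 in every library (Ptx3, Amh, Fshr and Lhcgr), summed to 0.358 ± 0.618 CPM in hCG and 1.215 ± 1.495 CPM in Ctrl (permutation test, adjusted p = 0.0264), with ranges of 0 to 3.10 CPM in hCG and 0 to 7.07 CPM in Ctrl, and their part in the results was not tested. The largest part of this sum is Cyp11a1, with means of 0.265 CPM in hCG and 0.946 CPM in Ctrl, from 44 and 144 reads over all libraries. Foxl2 had a higher mean in hCG (0.0790 CPM) than in Ctrl (0.0619 CPM), and Has2, Tnfaip6, Inha and Cyp19a1 a lower one. In 5 hCG libraries (1, 3, 4, 22 and 23) and 0 Ctrl libraries, Xist and Y-linked transcripts both reached 50 CPM. CPM are not corrected for gene length, so they do not compare levels between genes, and where a list had no call the gene of highest CPM only serves as its example. In bulk libraries such as these, fewer cells of a type and less RNA per cell cannot be told apart.

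In blastocysts, 4 of the 10 genes passed the test: Amot, Lats1 and Tead1 fell and Wwtr1 rose in hCG embryos. The log2 fold changes of these 4 genes, hCG over Ctrl, were -0.61, -0.72, -0.40 and 0.28. The test was limma on log2(CPM + 1) with TMM scaling, two-sided, with Benjamini-Hochberg adjustment over 10850 genes and a threshold of 0.05. Of all genes tested, 8.93% were called higher and 7.19% lower, or 16.1% in either direction, and of the 10 Hippo genes 1 was called higher and 3 lower. The median log2 fold change was -0.21 over the 10 genes, 8 of them negative, and 0.03 over all genes tested. No gene had groups that did not overlap. At an unadjusted p under 0.05, 6 of the 10 passed. The share of all genes at an unadjusted p under 0.05 is not given here, so such counts, here and below, cannot be set against it. Without the 5 hCG libraries that hold both Xist and Y-linked transcripts, 0 were called higher and 2 lower by limma (1 and 3 at an unadjusted p under 0.05).

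Among the angiomotins, Amot was lower in hCG blastocysts. Amot encodes angiomotin, a junction scaffold that binds Yap and, in inner cells, activates Lats. Its level was 12.03 CPM in the lowest, 22.3 in the median and 45.3 in the highest hCG library, against 12.2, 35.2 and 92.1 CPM in the lowest, median and highest Ctrl library. The groups overlapped, 24 of 28 hCG libraries lay below the Ctrl median, and 9 Ctrl libraries lay above every hCG library. Means were 25.2 ± 7.94 CPM in hCG and 39.7 ± 16.96 CPM in Ctrl (SD, n = 28 each), a log2 fold change of -0.61 ± 0.14 (SE; limma, adjusted p = 0.00254). Without the 5 hCG libraries that hold both Xist and Y-linked transcripts it was -0.59 ± 0.15 (limma, adjusted p = 0.00869), and with both marker sums as covariates -0.63 ± 0.13 (limma, adjusted p = 0.000723). Amot is on the X chromosome; with the Xist and Y-linked levels as covariates the value was -0.62 ± 0.14 (limma, adjusted p = 0.00229).

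Amotl2, an angiomotin that also binds Yap, had 12.7, 24.2 and 51.1 CPM in the lowest, median and highest hCG library and 16.1, 31.0 and 86.2 CPM in those of Ctrl. The groups overlapped, with 21 of 28 hCG libraries below the Ctrl median. Its log2 fold change of -0.28 ± 0.14 did not pass (limma, adjusted p = 0.163). Amotl1, the remaining angiomotin, was close to the detection limit, with a median of 1.51 CPM in hCG and 3.42 CPM in Ctrl and 3 libraries at 0 in each group. Its log2 fold change was -0.18 ± 0.29, with a 95% interval from -0.74 to 0.39. Nf2 encodes merlin, a membrane scaffold that recruits Lats. Nf2 had 4.25, 18.8 and 41.3 CPM in the lowest, median and highest hCG library, against 5.48, 22.5 and 47.1 CPM in Ctrl. The groups covered nearly the same range, and the log2 fold change was -0.14 ± 0.18 (limma, adjusted p = 0.656).

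Of the Lats kinases, which phosphorylate Yap and Taz, Lats1 was called lower and Lats2 was not called. Lats1 had 0.180, 2.51 and 5.65 CPM in the lowest, median and highest hCG library and 0.285, 4.38 and 10.9 CPM in those of Ctrl. The groups overlapped, 24 of 28 hCG libraries were below the Ctrl median, and 10 Ctrl libraries were above every hCG library. Means were 2.57 ± 1.69 CPM in hCG and 4.86 ± 2.997 CPM in Ctrl (SD, n = 28 each), a log2 fold change of -0.72 ± 0.22 (SE; limma, adjusted p = 0.0181). This gene rests on few reads, 402 over all hCG and 821 over all Ctrl libraries, so the 1 CPM added before the logarithm shrinks its fold change, which was -0.85 with 0.5 CPM added and -0.37 with 5 CPM added. With genes detected as a covariate it was -0.66 ± 0.24 and no longer passed (limma, adjusted p = 0.0741). Lats1 shares part of its span with Pcmt1 in RefSeq, as Amotl1, Wwtr1 and Lats2 do with predicted genes, and the labels do not say whether counting used the strand. Lats2 had 6.28, 12.5 and 29.5 CPM in the lowest, median and highest hCG library, against 3.96, 14.9 and 33.9 CPM in Ctrl. Its groups overlapped almost fully, with a log2 fold change of -0.03 ± 0.16 and a 95% interval from -0.34 to 0.29.

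Of the coactivators, Wwtr1 (Taz) was higher and Yap1 was not called. Wwtr1 had 36.5, 71.3 and 129 CPM in the lowest, median and highest hCG library and 40.4, 58.4 and 85.5 CPM in those of Ctrl. The spread was wider in hCG, where 9 libraries lay above and 2 below every Ctrl library. Means were 74.7 ± 22.3 CPM in hCG and 58.8 ± 12.9 CPM in Ctrl (SD, n = 28 each), a log2 fold change of 0.28 ± 0.10 (SE; limma, adjusted p = 0.0429), and 20 of 28 hCG libraries were above the Ctrl median. Without the 5 hCG libraries with both Xist and Y-linked transcripts it was 0.20 ± 0.10 and did not pass (limma, adjusted p = 0.191). The highest hCG library, number 23, is among those 5. With both marker sums as covariates the value was 0.23 ± 0.09 (limma, adjusted p = 0.0759), and with genes detected as a covariate 0.28 ± 0.11 (limma, adjusted p = 0.104). Leaving out 1 library ended the call in 21 of 56 cases, with values of 0.24 to 0.28 and adjusted p up to 0.0751 by limma: hCG libraries 1, 3, 4, 9, 11, 13, 15, 20, 21, 22, 23 and 24, and Ctrl libraries 1, 2, 7, 8, 11, 18, 20, 24 and 26. Yap1 had 8.63, 18.8 and 30.6 CPM in the lowest, median and highest hCG library, against 6.26, 22.1 and 61.7 CPM in Ctrl. The hCG libraries sat inside the Ctrl range, 20 of 28 of them below the Ctrl median. The log2 fold change of -0.24 ± 0.14 did not pass (limma, adjusted p = 0.232).

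**Figure D1:**
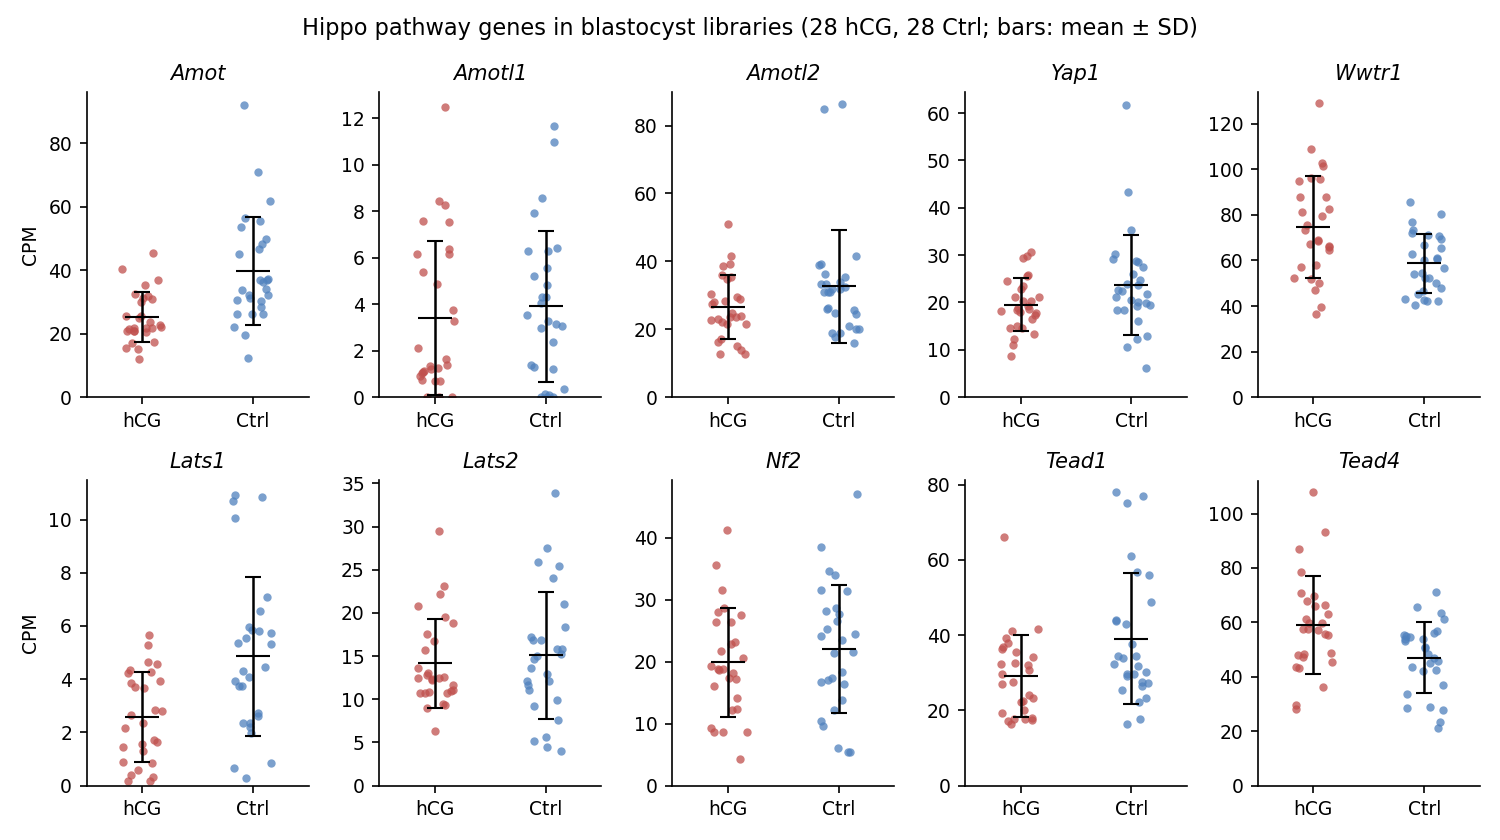
Level of each Hippo gene in CPM (vertical axis, from 0, own scale per gene) in 28 hCG (red) and 28 Ctrl (blue) blastocyst libraries. Each point is a library and bars give mean ± SD; Amot averaged 25.2 CPM in hCG and 39.7 CPM in Ctrl, Wwtr1 74.7 CPM in hCG and 58.8 CPM in Ctrl, and the groups overlap for all 10 genes.

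The Tead genes encode the DNA-binding partners of Yap and Taz, and Tead4 is the one needed for trophectoderm in the mouse. Tead1 had 16.4, 28.6 and 66.1 CPM in the lowest, median and highest hCG library and 16.4, 33.2 and 78.0 CPM in those of Ctrl. The lower ends of the groups coincided, and the difference lay in the upper part of the range. Means were 29.2 ± 10.9 CPM in hCG and 39.1 ± 17.3 CPM in Ctrl (SD, n = 28 each), a log2 fold change of -0.40 ± 0.14 (SE; limma, adjusted p = 0.0369). Without the 5 hCG libraries named above it was -0.38 ± 0.15 and did not pass (limma, adjusted p = 0.0789). Leaving out 1 library ended the Tead1 call in 13 of 56 cases, with values of -0.38 to -0.36 and adjusted p up to 0.0640 by limma: hCG libraries 9, 11, 13 and 14, and Ctrl libraries 5, 6, 7, 13, 14, 18, 22, 25 and 28. Tead4 had 28.2, 57.7 and 108 CPM in the lowest, median and highest hCG library, against 21.3, 49.4 and 71.1 CPM in Ctrl. Of the hCG libraries, 4 lay above every Ctrl library, and 18 of 28 were above the Ctrl median. Its log2 fold change of 0.29 ± 0.11 missed the threshold (limma, adjusted p = 0.0592). With both marker sums as covariates it was 0.31 ± 0.11 and passed (limma, adjusted p = 0.0402). It also passed without hCG library 5, 7 or 28 or Ctrl library 11, 19 or 22, with values of 0.31 to 0.32 and adjusted p down to 0.0301 by limma.

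The scaling decides part of this picture. The deposited blastocyst values carry a factor per library that the labels do not explain, and dividing by the column total removes it. Without that scaling, the median log2 fold change of all genes moved to 0.49, and 99.6% of the calls were higher in hCG, against 55.4% in the scaled fit, 37.2% with edgeR and 43.6% with DESeq2 on estimated reads. Relative to the unscaled median, Amot was at -0.70, Lats1 at -1.15, Tead1 at -0.48 and Wwtr1 at 0.22.

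Across the 28 libraries of each group, 45 pairs of the 10 genes were correlated, and the p-values were adjusted over the 90 tests of both groups. Nf2 and Tead4 went together in hCG (Pearson r = 0.645, Spearman rho = 0.623; permutation test, adjusted p = 0.0069 and 0.0168). In Ctrl the values were r = 0.663 and rho = 0.616 (permutation test, adjusted p = 0.0069 and 0.0168). Without the 2 libraries farthest from the median of Nf2, r was 0.474 in hCG and 0.508 in Ctrl. Yap1 and Tead1 gave r = -0.003 and rho = -0.103 in hCG (permutation test, adjusted p = 0.989 and 0.951). In Ctrl they gave r = 0.584 and rho = 0.635 (permutation test, adjusted p = 0.0191 and 0.0168), and r was 0.576 without 2 libraries. The difference between the groups in this relation was not tested. No other pair passed by both coefficients. Amot and Lats1, both lower in hCG, gave rho = -0.517 in hCG and -0.05 in Ctrl, and neither passed (permutation test, adjusted p = 0.118 and 0.959). The libraries differ in depth, and the labels give no preparation batch or date, so a batch that follows the groups cannot be told apart from hCG. Correlations of the 10 genes with genes detected and with both marker sums gave no adjusted p under 0.205 by permutation test.

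**Figure D2:**
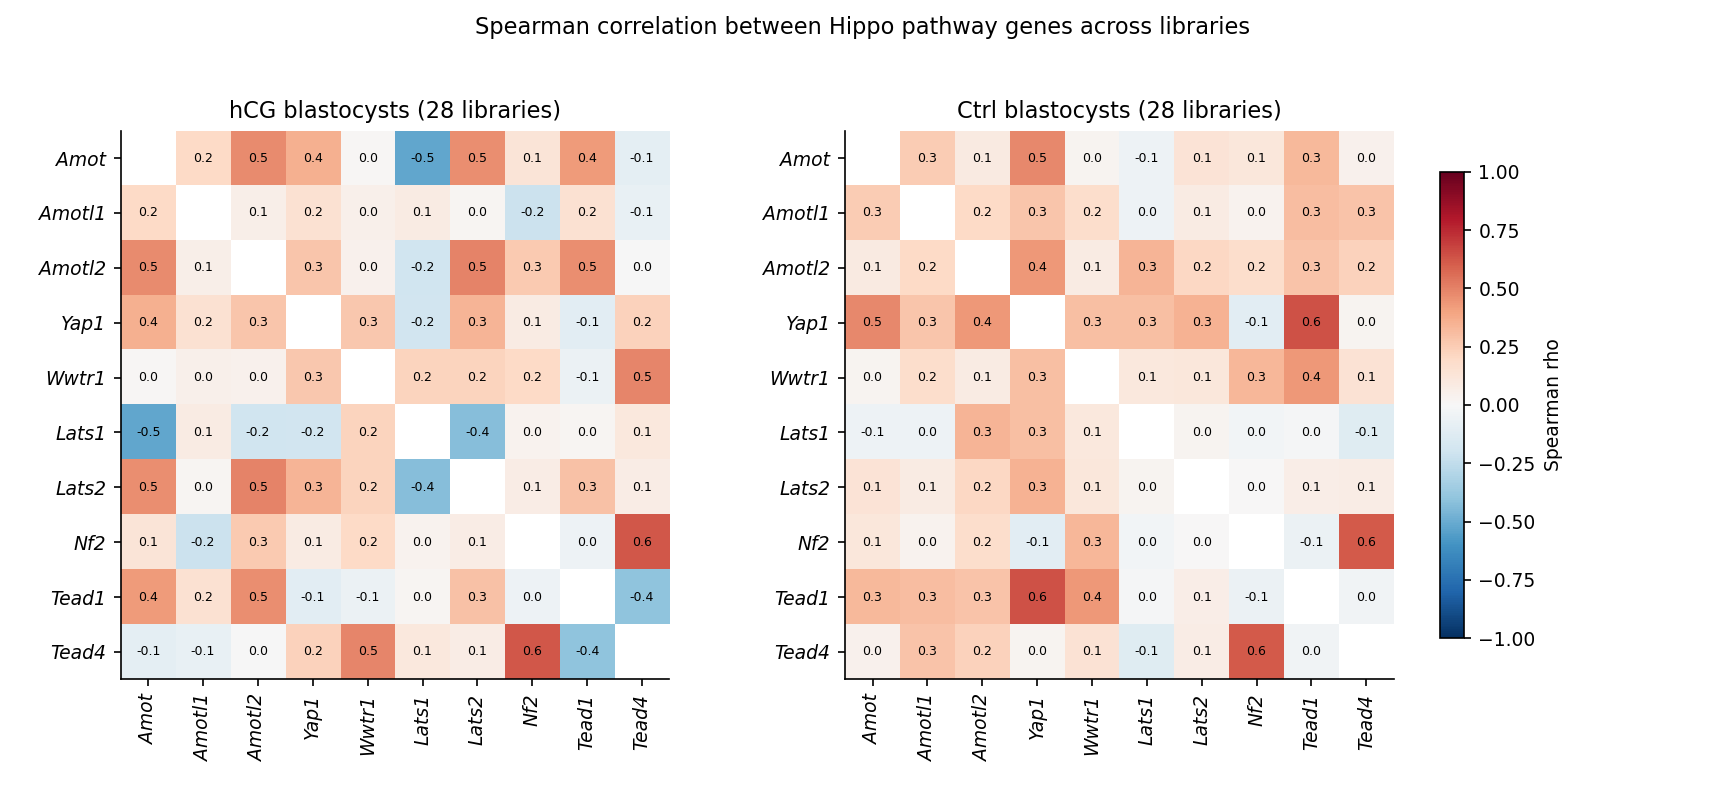
Spearman rho between the 10 Hippo genes across 28 hCG blastocyst libraries (left) and 28 Ctrl libraries (right), on a colour scale from -1 to 1. Nf2 with Tead4 is high on both sides (0.623 in hCG, 0.616 in Ctrl), and Yap1 with Tead1 is -0.103 in hCG and 0.635 in Ctrl.

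For each of the 4 called genes, the pair of other genes with the highest Spearman rho over the 28 Ctrl libraries was taken from 9187 genes of mean level 5 CPM or more, and the same rho was computed over the hCG libraries. Amot was most like Agps (rho = 0.593 in hCG, 0.87 in Ctrl) and Cep192 (0.363 in hCG, 0.838 in Ctrl). Wwtr1 was most like R3hdm1 (0.538 in hCG, 0.708 in Ctrl) and Sidt2 (0.697 in hCG, 0.707 in Ctrl). Tead1 was most like Tle4 (0.247 in hCG, 0.843 in Ctrl) and Gnaq (0.19 in hCG, 0.817 in Ctrl). Lats1 was most like Tra2a (0.033 in hCG, 0.725 in Ctrl) and Itprid2 (-0.097 in hCG, 0.632 in Ctrl). The Ctrl values are the highest of many and are therefore a description.

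The rest of the pathway was described by 5 lists in blastocysts. Of the kinases and adaptors of the cascade, 18 of 19 were tested, 1 rose and 4 fell, with a median log2 fold change of -0.19 against 0.03 over all genes. The share of all genes called in either direction, 16.1%, applies to the counts of this and the next 4 lists, and shares near it say nothing particular about a list. With genes detected as a covariate, 1 rose and 1 fell by limma, and Strn3 and Slmap did not pass (adjusted p = 0.113 and 0.153). Taok1, a kinase upstream of the Mst kinases, averaged 124 ± 25.4 CPM in hCG and 165 ± 48.5 CPM in Ctrl. The log2 fold changes were -0.41 for Taok1, -0.43 for Strn3 and -0.35 for Slmap, and 0.59 for Map4k1 (limma, adjusted p = 0.00388, 0.00590, 0.0153 and 0.00409). Strn3 and Slmap belong to the phosphatase complex that restrains the Mst kinases, and Map4k1 is a kinase. Map4k3, named after its value was seen because it completes the count, was at -0.41. Stk3 and Stk4, the Mst kinases themselves, were at -0.23 and -0.27 and did not pass (limma, adjusted p = 0.176 and 0.0800).

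Of the polarity, junction and membrane regulators, 25 of 29 were tested, 1 rose and 4 fell, with a median log2 fold change of -0.04. Without the 5 hCG libraries that hold both Xist and Y-linked transcripts, 0 rose and 2 fell by limma (2 and 5 at an unadjusted p under 0.05). With all libraries kept, edgeR called 0 higher and 4 lower. With genes detected as a covariate 0 rose and 3 fell by limma (2 and 5 at an unadjusted p under 0.05), Mark3 and Prkcz not passing (adjusted p = 0.0804 and 0.113), and with both marker sums as covariates 3 rose and 4 fell. The 5 calls among 25 genes are a share close to that of all genes. Ctnna1, the α-catenin of adherens junctions, averaged 280 ± 73.6 CPM in hCG and 370 ± 118 CPM in Ctrl, a log2 fold change of -0.42 (limma, adjusted p = 0.00523). Cdh1 (E-cadherin) was at -0.26 and the polarity kinase Mark3 at -0.40 (limma, adjusted p = 0.0442 and 0.0155). Prkcz, an atypical protein kinase C of the apical domain, was at 0.30 (limma, adjusted p = 0.0275). Limd1, which completes the count and was named after its value was seen, was at -0.42. The Cdh1 call ended in 30 of 56 fits with 1 library left out, with adjusted p up to 0.0767 by limma. Of the other Tead and Vestigial-like genes, 4 of 6 were tested and 1 passed. Tead2 averaged 14.4 ± 4.62 CPM in hCG and 21.4 ± 10.8 CPM in Ctrl, a log2 fold change of -0.50 (limma, adjusted p = 0.0298). Its call ended without hCG library 17 or Ctrl library 13 (limma, adjusted p = 0.0505 and 0.0520), with genes detected as a covariate (limma, adjusted p = 0.106) and with both marker sums as covariates (limma, adjusted p = 0.0551).

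Of 20 known Yap and Taz target genes, 9 passed the filter on low counts, 2 rose and 0 fell, where 8.93% of all genes tested were called higher. With so few genes tested, the count says nothing particular about the list. At an unadjusted p under 0.05 the counts were 3 higher and 1 lower, DESeq2 also called 2 higher and 0 lower, edgeR called 1 and 0, and without the 5 hCG libraries that hold both Xist and Y-linked transcripts limma called 2 and 0. Ccn1 (Cyr61), a secreted matrix protein that is among the most used targets of Yap, had 6.02, 15.98 and 55.4 CPM in the lowest, median and highest hCG library, against 1.64, 6.49 and 36.8 CPM in Ctrl. The groups overlapped, and 27 of 28 hCG libraries were above the Ctrl median. Its means were 20.9 ± 14.3 CPM in hCG and 9.99 ± 7.92 CPM in Ctrl (SD, n = 28 each), a log2 fold change of 1.01 ± 0.22 (limma, adjusted p = 0.00185). F3, the coagulation tissue factor, averaged 4.60 ± 3.48 CPM in hCG and 2.01 ± 2.15 CPM in Ctrl, a log2 fold change of 0.94 ± 0.26 (limma, adjusted p = 0.00964). F3 rests on few reads, 713 over all hCG and 313 over all Ctrl libraries, with 7 Ctrl libraries at 0. Over 13 alternative settings its log2 fold change ran from 0.42 to 3.71, and the call held in 12. Ccn2, a close relative of Ccn1 and named after its value was seen, averaged 9.16 ± 7.53 CPM in hCG and 5.42 ± 4.47 CPM in Ctrl and did not pass (log2 fold change 0.66; limma, adjusted p = 0.0529). Dock5 at -0.30 and Myof at -0.45, also named after their values were seen, did not pass either (limma, adjusted p = 0.126 and 0.237). Over the 9 targets tested the median log2 fold change was 0.15, with 6 values positive and 3 negative. The 10 uterine, stromal and blood cell markers summed to 92.4 ± 47.5 CPM in hCG and 67.2 ± 35.3 CPM in Ctrl (permutation test, adjusted p = 0.0968), ranging from 39.3 to 282 CPM in hCG and from 11.2 to 177 CPM in Ctrl, with Hbb-bs and Col3a1 at 0 in every library. Most of that sum is Cd74 (48.5 CPM in hCG, 33.9 CPM in Ctrl), Pecam1 (29.3 and 22.8 CPM) and Hba-a1 (12.4 and 8.93 CPM). None of them passed by limma. Col1a1 averaged 1.91 CPM in hCG and 1.18 CPM in Ctrl, and every other marker was lower. Ptprc had 1 read in hCG and 0 in Ctrl, and Ltf averaged 0.244 CPM in hCG and 0.355 CPM in Ctrl. The part of these markers in the results was not tested.

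Of 7 lineage genes downstream of Tead4 and Yap, all tested, 0 rose and 1 fell. Eomes, a trophectoderm transcription factor, averaged 43.7 ± 21.7 CPM in hCG and 72.3 ± 45.4 CPM in Ctrl, a log2 fold change of -0.68 ± 0.17 (limma, adjusted p = 0.00426). Cdx2 averaged 36.0 ± 10.8 CPM in hCG and 36.0 ± 21.2 CPM in Ctrl, and Gata3 1633 ± 442 CPM in hCG and 1333 ± 654 CPM in Ctrl, and neither passed (limma, adjusted p = 0.743 and 0.0713). In the marker lists, 4 of 10 trophectoderm markers (Eomes, Fgfr2, Gata2 and Id2) were called lower and 0 higher. Of the 10 values, 3 (Cdx2, Gata3 and Tfap2c) were positive and 7 negative. Of the 7 inner cell mass markers, 1, Nanog at 0.58, was called higher. Among all genes tested, 7.19% were called lower and 8.93% higher. The median of the inner cell mass list was -0.34, with 2 values positive and 5 negative, among them Prdm14 at -0.63 and Fgf4 at -0.57, which did not pass (limma, adjusted p = 0.0914 and 0.208).

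**Figure D3:**
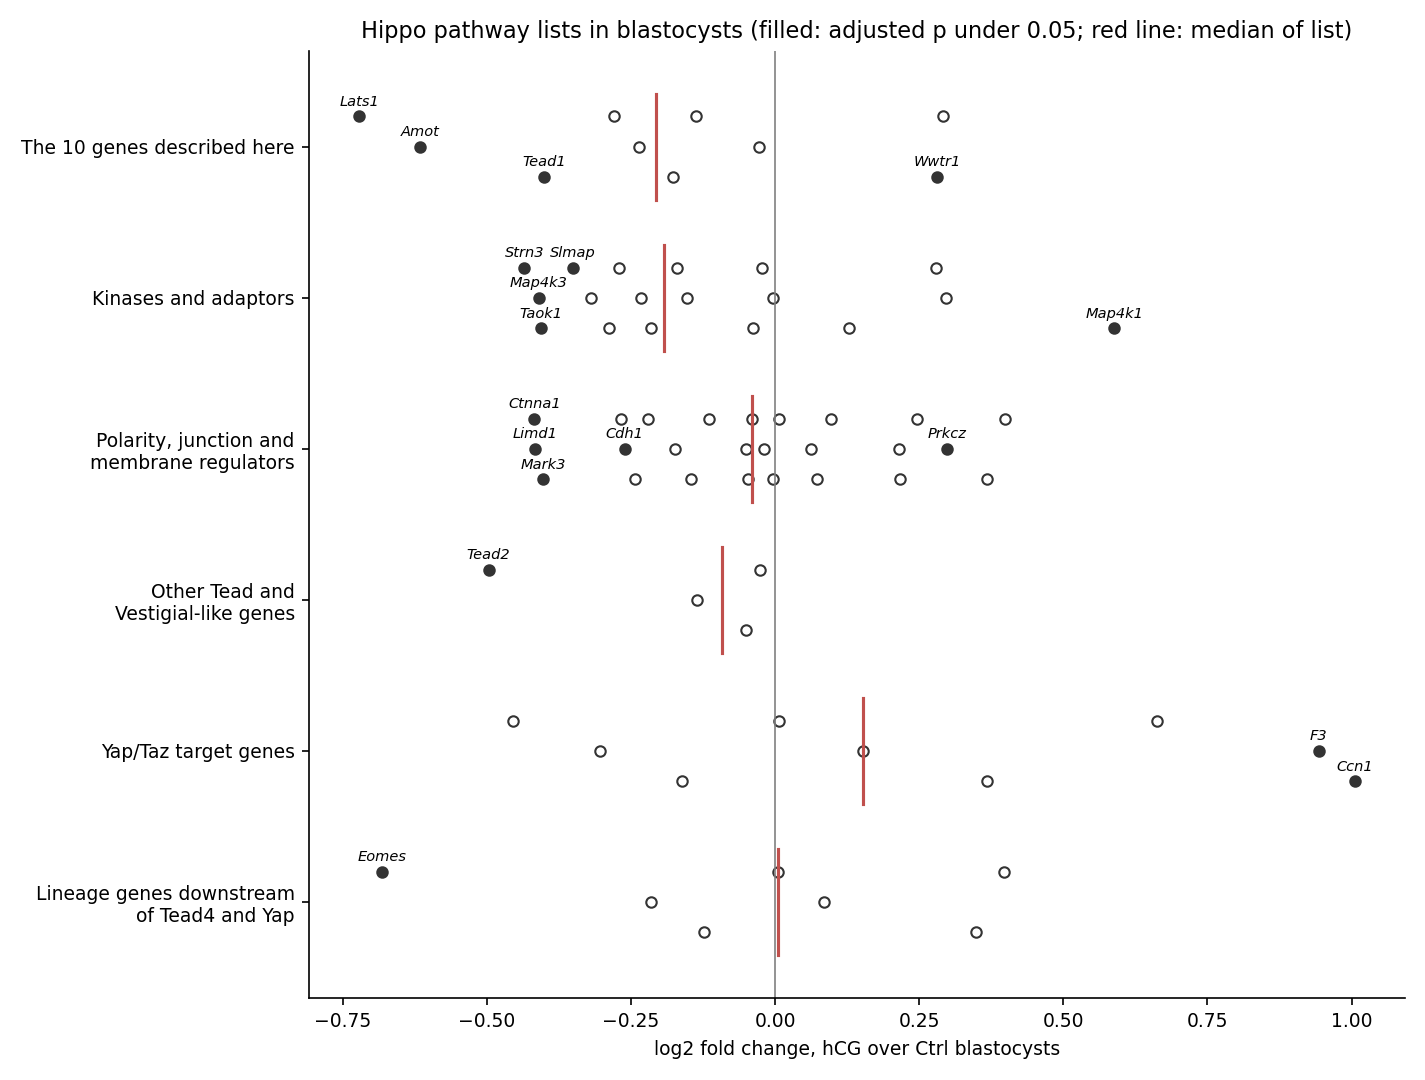
Log2 fold change of each tested gene, hCG over Ctrl blastocysts (horizontal axis), by list (rows). Filled points passed the test at an adjusted p under 0.05 and are named, open points did not, and the red line is the median of the list; Ccn1 at 1.01 and F3 at 0.94 lie farthest to the right and Lats1 at -0.72 farthest to the left.

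In oocytes, 7 of the 10 genes passed the filter on low counts and 0 were called by edgeR's quasi-likelihood test, where 1.33% of 9551 genes were called higher and 2.66% lower (3.99% in either direction). The count by DESeq2 was also 0, and 2 genes, Nf2 and Yap1, had an unadjusted p under 0.05 by edgeR. The median log2 fold change was 0.23 over the 7 genes and 0.01 over all genes. The 9 oocyte markers summed to 7092 ± 919.5 CPM in hCG and 8765 ± 1253 CPM in Ctrl (exact permutation test, adjusted p = 0.0951). Of their log2 fold changes, 2 were positive and 7 negative. Mos and Zp3 were called lower (edgeR, adjusted p = 0.00350 and 0.0199), and the part of these markers in the results was not tested. Nf2 had 108, 123 and 140 CPM in the lowest, median and highest hCG library and 68.1, 91.1 and 118 CPM in those of Ctrl. All 6 hCG libraries were above the Ctrl median and 5 above every Ctrl library. Its log2 fold change was 0.41 ± 0.15 (SE, n = 6 each; edgeR, adjusted p = 0.128). Yap1 had 324, 415 and 524 CPM in the lowest, median and highest hCG library, against 163, 295 and 455 CPM in Ctrl. All 6 hCG libraries lay above the Ctrl median, and 2 above every Ctrl library. The log2 fold change was 0.46 ± 0.20 (edgeR, adjusted p = 0.211).

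The other Hippo genes were low or not detected in oocytes. Lats1 had 4.19, 6.32 and 14.9 CPM in the lowest, median and highest hCG library, against 3.33, 4.97 and 7.74 CPM in Ctrl (log2 fold change 0.57 ± 0.35; edgeR, adjusted p = 0.411). Lats2 had medians of 2.75 CPM in hCG and 1.02 CPM in Ctrl, with 84 reads over all hCG and 51 over all Ctrl libraries. Amot had medians of 3.62 CPM in hCG and 5.09 CPM in Ctrl, and Amotl1 8.33 CPM in hCG and 9.28 CPM in Ctrl. Tead1 had medians of 1.62 CPM in hCG and 3.15 CPM in Ctrl. These genes span wide intervals, as Lats2 does from -1.13 to 1.59 on the log2 scale. Its Ctrl libraries ran from 0 to 8.84 CPM, and the highest are libraries 2 and 4, which have the fewest reads. Amotl2 had 0 reads in hCG and 2 in Ctrl, Wwtr1 1 read in each group, and Tead4 0 reads in both. A count of 0 allows up to 0.104 CPM over the hCG libraries and 0.113 CPM over the Ctrl libraries, for counting error only.

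Of the pathway lists in oocytes, 0 genes were called among 18 kinases and adaptors, 21 polarity, junction and membrane regulators, 3 Tead and Vestigial-like genes, 4 Yap and Taz targets and 3 lineage genes tested by edgeR. DESeq2 called 1 of the kinases higher and 0 in the other lists, and at an unadjusted p under 0.05 by edgeR the counts were 5, 2, 0, 1 and 0, all higher. Without Ctrl libraries 2 and 4, edgeR called 2 kinases and 1 regulator higher. Their medians ran from -0.08 to 0.185 on the log2 scale. The kinase with the highest CPM of those tested, Map4k5, averaged 358 ± 57.8 CPM in hCG and 262 ± 81.2 CPM in Ctrl (log2 fold change 0.45; edgeR, adjusted p = 0.154). Wwc2, a scaffold related to Kibra, averaged 749 ± 123 CPM in hCG and 524 ± 200 CPM in Ctrl (0.52; edgeR, adjusted p = 0.138). Without Ctrl library 4 it was called (0.64; edgeR, adjusted p = 0.0463). Tgfb2, Vgll4 and Gata3, with the highest CPM in the other lists, had log2 fold changes of 0.18, -0.01 and -0.22.

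In dDG of the offspring, 9 of the 10 genes passed the filter and 0 were called by edgeR, where 4.66% of 13853 genes were called higher and 3.2% lower (7.86% in either direction). The count by DESeq2 was 0 as well, and Yap1 alone had an unadjusted p under 0.05 by edgeR. The median log2 fold change was 0.05 over the 9 genes and 0.01 over all genes. Yap1 had 24.3, 29.9 and 47.0 CPM in the lowest, median and highest hCG library and 23.1, 27.6 and 29.1 CPM in those of Ctrl. Of the hCG libraries, 3 lay above every Ctrl library, and the highest, library 6, is also the one with 10157 CPM of choroid plexus, ependyma and meninges markers. In the 6 hCG libraries together these 12 markers summed to 1822 ± 4084 CPM, from 65.5 to 10157, and in Ctrl to 144 ± 90.7 CPM, from 60.7 to 296, with none of them at 0 in every library. The Yap1 log2 fold change was 0.28 ± 0.13 (SE, n = 6 each; edgeR, adjusted p = 0.200), and without hCG library 6 it was 0.14 ± 0.08 (edgeR, adjusted p = 0.369).

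The dDG table lists transcripts. Of the Yap1 transcripts, NM_001171147 averaged 11.6 ± 4.72 CPM in hCG and 7.24 ± 2.44 CPM in Ctrl, a log2 fold change of 0.69 ± 0.29, and NM_009534 20.6 ± 5.03 CPM in hCG and 19.5 ± 3.18 CPM in Ctrl, one of 0.09 ± 0.16 (edgeR, adjusted p = 0.215 and 0.823 over 18584 transcripts). Of all transcripts tested, 609 were called, and 0 of the Hippo genes' transcripts were among them.

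The remaining Hippo genes in dDG were not called, and their groups overlapped. Nf2 had 133, 138 and 151 CPM in the lowest, median and highest hCG library, against 127, 135 and 142 CPM in Ctrl. Lats1 had medians of 50.1 CPM in hCG and 49.3 CPM in Ctrl, with a 95% interval of the log2 fold change from -0.07 to 0.16, and Lats2 46.9 CPM in hCG and 49.9 CPM in Ctrl, with one from -0.39 to 0.48. Tead1 had 28.8, 35.7 and 37.3 CPM in the lowest, median and highest hCG library and 35.7, 36.8 and 46.6 CPM in those of Ctrl (log2 fold change -0.16 ± 0.08; edgeR, adjusted p = 0.241). Amot had medians of 25.8 CPM in hCG and 29.0 CPM in Ctrl, and 4 of 6 hCG libraries lay below every Ctrl library. Amotl1 had medians of 23.03 CPM in hCG and 25.8 CPM in Ctrl, Amotl2 13.3 CPM in hCG and 14.1 CPM in Ctrl, and Wwtr1 15.9 CPM in hCG and 15.4 CPM in Ctrl. Tead4 was at medians of 0.394 CPM in hCG and 0.421 CPM in Ctrl and was not tested.

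**Figure D4:**
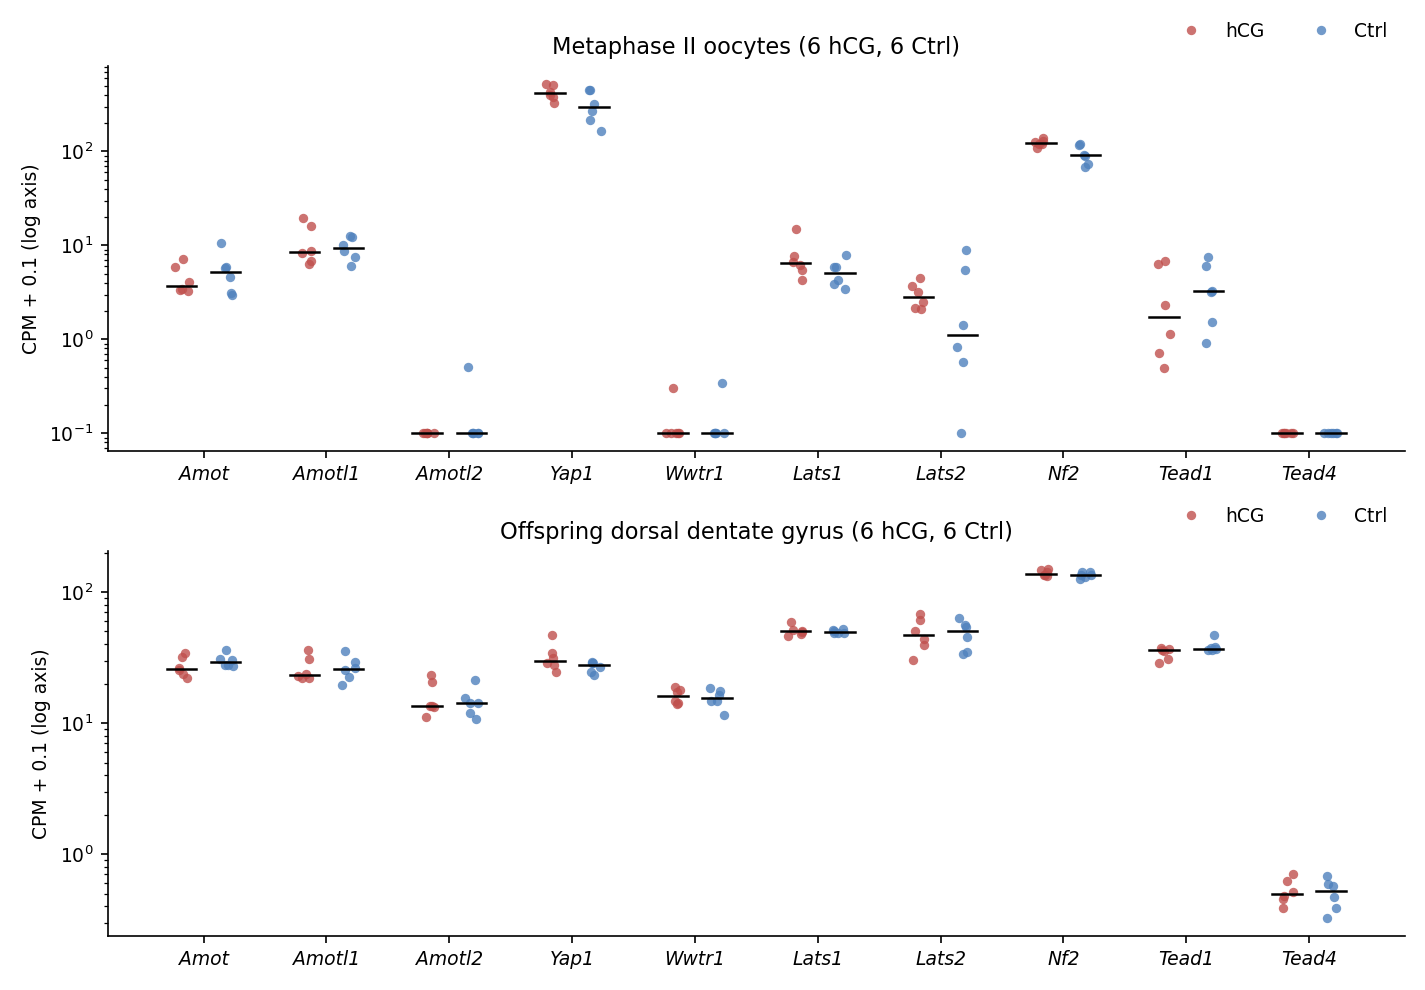
Level of each Hippo gene as CPM + 0.1 (log axis) in oocytes (top) and dDG (bottom), hCG in red on the left and Ctrl in blue on the right of each pair. Points are the 6 libraries of a group and lines their medians; Amotl2, Wwtr1 and Tead4 lie at or near 0 in oocytes, and Yap1 has medians of 415 CPM in hCG and 295 CPM in Ctrl oocytes.

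Among the pathway lists in dDG, 19 kinases and adaptors gave 0 higher and 1 lower, 25 regulators 1 higher and 1 lower, 3 Tead and Vestigial-like genes 0, 19 Yap and Taz targets 1 higher and 1 lower, and 2 lineage genes 0. DESeq2 called 3 regulators higher and 2 lower, with the other counts as by edgeR. Of all genes tested, 7.86% were called. Marker sums of some dDG cell types are given beside these lists. The 7 granule neuron markers summed to 1334 ± 119 CPM in hCG, from 1189 to 1482, and to 1073 ± 188 CPM in Ctrl, from 779.6 to 1332 (exact permutation test, adjusted p = 0.0951). Of their log2 fold changes, 6 were positive and 1 negative, and 2 genes (Prox1 and Plk5) were called higher. The 6 microglia markers summed to 292 ± 27.95 CPM in hCG, from 255 to 324, and to 259 ± 20.2 CPM in Ctrl, from 222 to 282 (exact permutation test, adjusted p = 0.190). Of these, 5 were positive and 1 negative, and 3 (Tmem119, C1qa and C1qb) were called higher. The 6 oligodendrocyte markers summed to 1498 ± 488 CPM in hCG and 1950 ± 585 CPM in Ctrl (exact permutation test, adjusted p = 0.444). Of their values, 1 was positive and called higher, and 5 were negative. No marker of these cell types was at 0 in every library, and their part in the results was not tested. Tnik, a kinase of the Map4k family, had 156, 160 and 177 CPM in the lowest, median and highest hCG library and 186, 203 and 226 CPM in those of Ctrl. Its log2 fold change was -0.30 ± 0.05 (edgeR, adjusted p = 0.00292). Crim1, a listed target, had 69.8, 76.2 and 79.4 CPM in the lowest, median and highest hCG library, against 93.6, 97.8 and 105 CPM in Ctrl. The Crim1 log2 fold change was -0.37 ± 0.05 (edgeR, adjusted p = 0.000558). Pard3, a polarity scaffold, averaged 43.4 ± 5.97 CPM in hCG and 32.3 ± 3.58 CPM in Ctrl (0.44 ± 0.10; edgeR, adjusted p = 0.0119). The atypical cadherin Fat4 averaged 81.4 ± 8.72 CPM in hCG and 118 ± 25.99 CPM in Ctrl (-0.52 ± 0.13; edgeR, adjusted p = 0.0272). Fjx1 averaged 73.7 ± 12.2 CPM in hCG and 53.1 ± 8.75 CPM in Ctrl (0.49 ± 0.12; edgeR, adjusted p = 0.0249). Without 1 library, the Fat4 call ended in 6 of 12 fits (hCG 2, 3, 4 and 5, Ctrl 2 and 3) and the Fjx1 call in 2 (hCG 4, Ctrl 2), with adjusted p up to 0.0583 by edgeR. The genes with the highest CPM in the lists with no call were Vgll4, a cofactor that competes with Yap for Tead proteins, at 0.06, and Sox2, a stem cell transcription factor, at 0.04 on the log2 scale (edgeR, adjusted p = 0.756 and 0.869).

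The hCG effect was then compared between materials with a Wald test on limma log2 fold changes, adjusted over all genes tested in both tables. Between blastocysts and oocytes, 15.1% of 7178 genes differed, and of the 7 Hippo genes Lats1 and Yap1 did. The effect on Lats1 was lower in blastocysts by 1.14 ± 0.36, with a log2 fold change of -0.72 in blastocysts and 0.41 in oocytes (Wald test, adjusted p = 0.0191). For Yap1 the difference was -0.75 ± 0.24, with -0.24 in blastocysts and 0.52 in oocytes (Wald test, adjusted p = 0.0188). Between blastocysts and dDG, 13.3% of 9341 genes differed, and of the 9 Hippo genes Lats1 and Amot did. Lats1 differed by -0.76 ± 0.22 and Amot by -0.49 ± 0.18 (Wald test, adjusted p = 0.0121 and 0.0447). Without the 5 hCG blastocyst libraries that hold both Xist and Y-linked transcripts, the Amot difference did not pass (Wald test, adjusted p = 0.0775). In oocytes, mating and the time since ovulation also differ between the groups and cannot be told apart from hCG in the difference between blastocysts and oocytes.

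**Figure D5:**
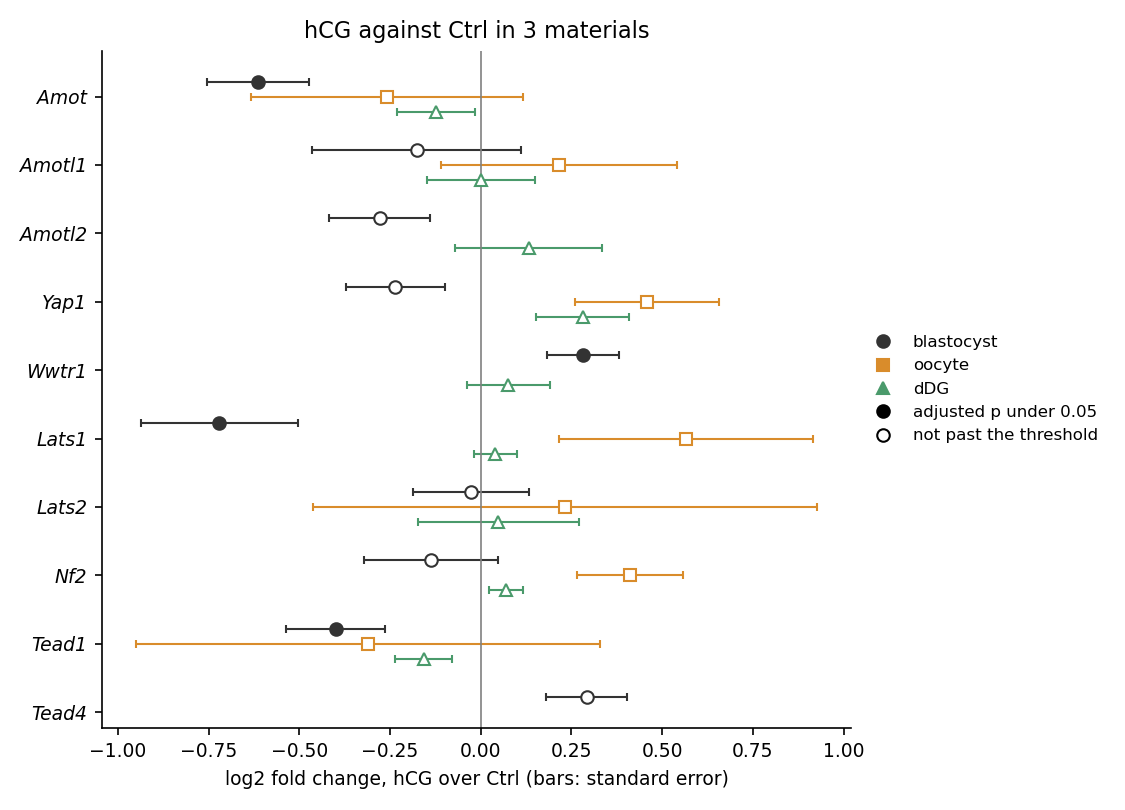
Log2 fold change, hCG over Ctrl (horizontal axis, bars are standard errors), of each Hippo gene in blastocysts (circles), oocytes (squares) and dDG (triangles). Filled marks passed the test, which are Amot, Wwtr1, Lats1 and Tead1 in blastocysts, and genes not tested in a material have no mark.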

How the data were processed

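RNA tables of 80 libraries were used; the other 44 samples, DNA methylation libraries, were not analysed here. The deposited oocyte table holds counts per gene symbol. The deposited dDG table holds expected counts per transcript, which were summed by gene and rounded. The deposited blastocyst table holds a signal: each library has a step, between 39.3 and 244, of which 89.0% to 93.5% of its values are multiples within 0.005, and the basis of the step is not given in the sources used here. Division by the step gave estimated reads for the filter, TMM factors and depth. Per the submitters' processing notes, STAR 2.7.6a, TopHat, Bowtie2, HTSeq 0.12.4, Trim Galore 0.6.4 and Trimmomatic 0.32 were used with mm10 and GRCm38, without saying which made which table. Symbols turned into dates, at most 0.216% of an oocyte and 0.335% of a dDG library, were left out.

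Blastocysts were tested with limma 3.58.1 (mean-variance trend, robust) on log2 of TMM-scaled CPM plus 1, and oocytes and dDG with the quasi-likelihood test of edgeR 4.0.16 (robust, TMM) in R 4.3.3. Genes passed the default low-count filter (10 counts, 15 in total). Two-sided p-values were corrected for all genes of a table by the Benjamini-Hochberg method. Standard errors from edgeR were derived from the fold change and its F statistic. Library measures were compared by permutation tests, exact over 924 regroupings for 6 against 6 libraries and with 100000 resamples for blastocysts, which was also used for correlations. The fits were tested on simulated data. Printed CPM are scaled to column totals without TMM. The 10 genes, the pathway lists and the markers were chosen with earlier results of these data known. Named from each list were up to 4 called genes by smallest p, or the tested gene of highest CPM where none was called. Alternatives were other pseudocounts, filters, scalings and tools (DESeq2 1.42.0), covariates, a replicate block and left-out libraries. The reads per library limit the precision of low genes. Intervals of log2 fold changes were built from the standard errors of the fits, which measure the spread between libraries. Floors cover counting error only.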

Additional observations from a re-analysis of the deposited data

Results flagged for a closer look

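Some single libraries lay far from the others of their group, as 7 of 37 groups of 6 libraries did by Dixon's test. About 1 in 20 groups of normally distributed values would pass it by chance. In oocytes, Amot was 10.5 CPM in Ctrl library 2 (next 5.72 CPM) and Lats1 14.9 CPM in hCG library 1 (next 7.68 CPM). Wwtr1 was 0.203 CPM in hCG library 6 and 0.239 CPM in Ctrl library 1, and Amotl2 0.410 CPM in Ctrl library 5, with all others of those groups at 0. These are 1 or 2 reads, and the rate of 1 in 20 does not apply to such groups. In dDG, Lats1 was 59.1 CPM in hCG library 4 (next 50.9 CPM) and Tead1 46.6 CPM in Ctrl library 1 (next 38.1 CPM).

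The hCG effect differed between materials by the Wald test for Lats1 (blastocyst minus oocyte -1.135 and blastocyst minus dDG -0.758 on the log2 scale), for Yap1 (blastocyst minus oocyte -0.752) and for Amot (blastocyst minus dDG -0.486). In the oocyte groups mating and the time since ovulation differ as well.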

How the results depend on the processing

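In blastocysts, 1 Hippo gene was called higher and 3 lower. The number higher was 0 with no low-count filter, with the replicate block, with genes detected as a covariate and without the libraries holding both Xist and Y-linked transcripts, and 2 with DESeq2 and with the deposited values unscaled. The number lower was 0 unscaled. It was 2 with no low-count filter, with CPM without TMM and with genes detected as a covariate. Without the libraries holding both Xist and Y-linked transcripts it was also 2. Leaving out 1 library gave 0 to 2 higher and 2 to 3 lower. Among all genes, 3655 were higher and 15 lower unscaled, 576 higher with edgeR, 363 higher and 398 lower with genes detected as a covariate, and 480 lower without the libraries holding both Xist and Y-linked transcripts. Unscaled values reversed Amotl1 (0.15), Amotl2 (0.14), Yap1 (0.19), Lats2 (0.41), Nf2 (0.29), Tead1 (0.017), Taok1 (0.022), Slmap (0.074), Ctnna1 (0.012), Mark3 (0.021) and Cdh1 (0.17), in a setting that moves the median of all genes to 0.49. Lats2 was 0.027 without the Ctrl library with the fewest genes detected, and -0.077 to 0.027 without 1 library.

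In oocytes, DESeq2 called 264 genes higher and 427 lower against 127 and 254 by edgeR, and 269 were higher without Ctrl libraries 2 and 4, where Amot was 0.10 and Tead1 0.37. Without 1 library the counts ran from 69 to 292 higher and from 166 to 363 lower, Amot from -0.43 to 0.012, Amotl1 from -0.048 to 0.34, Lats2 from -0.069 to 1.01, Tead1 from -0.75 to 0.012 and Vgll4 from -0.12 to 0.16. Vgll4 was 0.032 with the replicate block. In dDG, the block gave 387 higher and 197 lower against 646 and 443, DESeq2 706 lower, and the most abundant transcript alone 418 higher. Without 1 library the counts ran from 369 to 683 higher and from 267 to 547 lower, Amotl1 from -0.11 to 0.10, Amotl2 from -0.016 to 0.27, Lats1 from -0.00089 to 0.070, Lats2 from -0.074 to 0.16, Wwtr1 from -0.0051 to 0.13 and Sox2 from -0.037 to 0.14. Without hCG library 6, Amotl2 was -0.016 and Sox2 -0.018. The difference of effects between blastocysts and oocytes was -0.19 for Tead1 with a pseudocount of 5 CPM, and 1 Hippo gene differed between blastocysts and dDG without the libraries holding both Xist and Y-linked transcripts. The cause was not tested.

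Same-numbered libraries do not pair: the correlation of their deviations ran from -0.213 to 0.169 in blastocysts, from -0.187 to 0.210 in oocytes and from -0.157 to 0.138 in dDG, and 0, 1 and 0 libraries correlated best with their own number. Under the replicate block, Wwtr1 had an adjusted p of 0.0878 and Cdh1 of 0.0585 by limma, and in dDG Fat4 had 0.0818 and Fjx1 0.0760 by edgeR, so regulators gave 1 higher and 0 lower and targets 0 and 1 there. In blastocysts the block gave 3 kinases and 2 regulators lower and 3 targets higher. Both marker sums as covariates, the fit without the Ctrl library with the fewest genes, the test per dDG transcript and all alternatives of the difference of effects were chosen after seeing the data. Few reads limit Lats1, Amotl1 and F3 in blastocysts and Lats2 and Tead1 in oocytes.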
